A study of Homo sapiens with 12 samples.

Results

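The genes described here encode 9 small noncoding RNAs that work inside ribonucleoprotein particles, most of them made by RNA polymerase III. They are RN7SL1, RN7SL2, RN7SK, RMRP, RPPH1, RNY1, RNY3, TERC and VTRNA1-1, chosen by symbol because RN7SL1 had been seen as the highest gene of every library. The rule therefore used the FPKM themselves, and the rank and level of RN7SL1 are given as a description with no test. FPKM scales the fragments of a gene to its length and to the fragments of the library. Of the 9 genes, 6 matched a row of the 43876 in the table. RN7SL2, RN7SK and RPPH1 matched no identifier and were not analysed here. By FPKM in these libraries, the name of the group held for 1 gene only. RN7SL1 had a mean of 35228 FPKM (n = 12 libraries, as for each gene). The means were 4.52 for RNY1, 3.92 for VTRNA1-1, 0.398 for RNY3, 0.264 for TERC and 0.00943 for RMRP. RN7SL1, RNY1 and VTRNA1-1 reached 1 FPKM in at least 3 libraries and entered the tests with 18574 genes in all.

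The RNA came from MV4-11 cells, a human line from an acute myeloid leukemia, which the study uses as a carrier of FLT3-ITD, an activating duplication in a receptor tyrosine kinase, although its labels give the genotype as wild-type. The cells were exposed for 24 h to 20 nM Mitoxantrone (a topoisomerase II inhibitor, which the series title names as a liposome), to 25 nM Gilteritinib (a FLT3 inhibitor), to a Combination of 20 nM Mitoxantrone with 20 nM Gilteritinib, or to DMSO, the solvent. Each condition had 3 libraries, numbered 1 to 3, of the same cell line. Nothing in the labels says that they came from separate cultures, so p-values measure the spread between these libraries, which may be technical. The libraries were made from reverse-transcribed and amplified mRNA. FPKM here are levels in such libraries, and how they follow levels in the cells was not tested. Of 12 myeloid leukemia markers, 11 had a mean of at least 1 FPKM and CD14 had 0.176. The summed T cell markers CD3D, CD3E and CD3G reached at most 0.0893 FPKM in a library. Depth was 31725003 to 41330664 fragments a library. The share of the 37 mitochondrially encoded genes in total FPKM ran from 1.64% to 4.401%, and the 2 lowest values were those of replicate 1 of Gilteritinib (1.64%) and of the Combination (1.88%). In replicate 1 of DMSO (3.19%) and Mitoxantrone (3.32%) it also lay below the lowest value of replicates 2 and 3, 3.48%, but by less.

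RN7SL1, with RN7SL2, is the RNA of the signal recognition particle, which brings ribosomes making secreted or membrane proteins to the endoplasmic reticulum. RN7SK holds the elongation factor P-TEFb inactive, RPPH1 is the catalytic RNA of RNase P, which trims transfer RNA, and RMRP is its relative in RNase MRP. RNY1 and RNY3 are Y RNAs, bound by the Ro60 protein. TERC is the template of telomerase and is made by RNA polymerase II in human cells. VTRNA1-1 is a vault RNA, part of the large vault particle.

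Several of these genes have near copies. RN7SL1 (chr14:49586580-49586878, plus strand) and RN7SL3 (chr14:49853616-49853914, minus strand) are both 299 nt long in GENCODE release 29 (GRCh38) and were 97.7% identical, differing at 7 positions. RN7SL2 was 98.3% identical to RN7SL1. A fragment that covers none of the differing bases fits either gene, so levels of these genes depend on how such fragments were assigned, which is not given in the sources used here. RN7SL1 also lies within the span of RPS29, a ribosomal protein gene on the other strand with a mean of 30.2 FPKM. On its own strand it lies within the record AL139099.4, which has no row.

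RNY1 (chr7:148987136-148987248, minus strand, 113 nt) and RNY3 (chr7:148983755-148983856, plus strand, 102 nt) lie near each other and were 71.7% identical. The RNY1 sequence is shown as the Y RNA measured in every library, and its first 11 bases, in capitals, belong to the stem of a Y RNA.

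RNY1: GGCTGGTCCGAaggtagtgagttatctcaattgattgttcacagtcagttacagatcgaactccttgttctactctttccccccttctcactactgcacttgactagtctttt

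VTRNA1-1 (chr5:140711275-140711373, plus strand, 99 nt) held the letters GTTCGANNCC, in capitals, a form of the B box, a promoter element inside many genes of RNA polymerase III. These letters were searched on the transcript strand only and occurred in 61 of 18035 transcripts of at most 350 nt (0.338%). RNY1, RNY3 and VTRNA1-1 each end in 4 T, the kind of run at which RNA polymerase III stops, and RN7SL1 as annotated ends in 1.

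VTRNA1-1: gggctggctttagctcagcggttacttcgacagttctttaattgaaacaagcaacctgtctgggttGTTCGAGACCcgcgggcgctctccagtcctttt

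RN7SL1, the RNA of the signal recognition particle, had the highest FPKM of each of the 12 libraries. In DMSO it stood at 35334, 28397 and 21722 FPKM in replicates 1, 2 and 3. In Mitoxantrone the values were 26448, 25984 and 40750 FPKM. In Gilteritinib they were 46697, 39603 and 47596 FPKM. The Gilteritinib libraries were all above the DMSO libraries, as they were for 2.18% of all genes tested, while Mitoxantrone overlapped DMSO. In the Combination the values were 29935, 52761 and 27511 FPKM, so the highest library of the series stood beside libraries at the DMSO level. The next gene, the mitochondrial MT-CO1 or the granule proteoglycan gene SRGN, had 3836 to 5933 FPKM, and RN7SL1 exceeded it 4.09-fold in DMSO replicate 3 and 12.2-fold in Gilteritinib replicate 1.

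RN7SL1 made up 9.32% ± 2.37 of total FPKM (SD, n = 12), from 5.98% in DMSO replicate 3 to 13.4% in Combination replicate 2. By condition the share was 7.68% ± 1.68 in DMSO, 8.39% ± 2.11 in Mitoxantrone, 11.5% ± 0.976 in Gilteritinib and 9.71% ± 3.17 in the Combination (SD, n = 3 each). FPKM divides by length, so a short gene takes a larger share of FPKM than of fragments. As fragments, RN7SL1 was 1.05% ± 0.302 of a library (SD, n = 12), which is 214155 to 577073 fragments. Counting error was 46.8 to 71.9 FPKM a library, whereas the SD between replicates ran from 4378 FPKM in Gilteritinib to 13931 in the Combination.

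**Figure D1:**
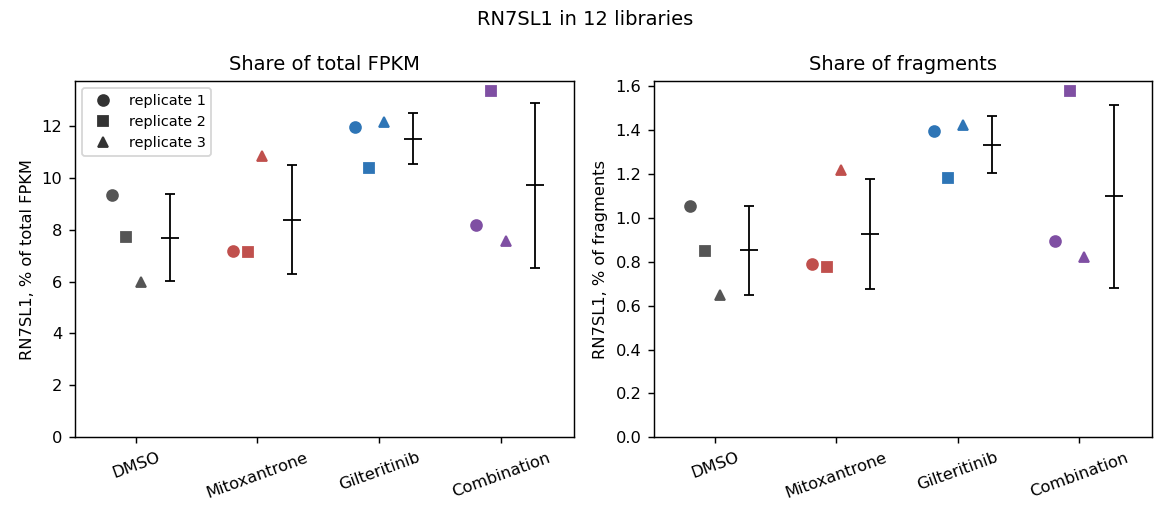
Share of RN7SL1 in total FPKM (left, percent) and in fragments (right, percent) in each of 12 libraries by condition; the marker shape gives the replicate number, and the bar beside the points is the mean ± SD of 3 libraries. The Gilteritinib libraries sit from 10.4% to 12.2% of total FPKM, all above the DMSO libraries, and the Combination holds the highest library, 13.4%.

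The difference in share between Gilteritinib and DMSO was 3.82 percentage points, and it was higher in 3 of 3 libraries than in any DMSO library. An exact permutation test gave p = 0.10 (two-sided, n = 3 against 3), the smallest value that this design allows, and 0.50 after Benjamini-Hochberg adjustment over 5 tests of the share. The Combination was 2.03 points above DMSO (exact permutation p = 0.50) and Mitoxantrone 0.704 points above it (exact permutation p = 0.70). Over the 4 conditions together the exact permutation test of the F statistic, with 369600 arrangements, gave p = 0.223 (adjusted 0.558). Over the 3 replicate numbers the same exact permutation test, with 34650 arrangements, gave p = 0.952 (adjusted 0.952). No test of the share passed 0.05, and with 3 libraries a group the tests against DMSO could not have. Leaving out DMSO replicate 3 or Mitoxantrone replicate 3 turned the Mitoxantrone difference to -0.146 or -0.514 points, and without Combination replicate 2 the Combination difference was 0.203 points.

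Total FPKM varied less once RN7SL1 was left out. With it, total FPKM ran from 362991 to 394998, with a coefficient of variation of 3.19% over the 12 libraries. Without RN7SL1 it ran from 335333 to 343762, with a coefficient of variation of 0.960%. RN7SL1 itself had one of 28.7%. The other 5 genes together made up 0.00148% to 0.00438% of total FPKM.

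**Figure D2:**
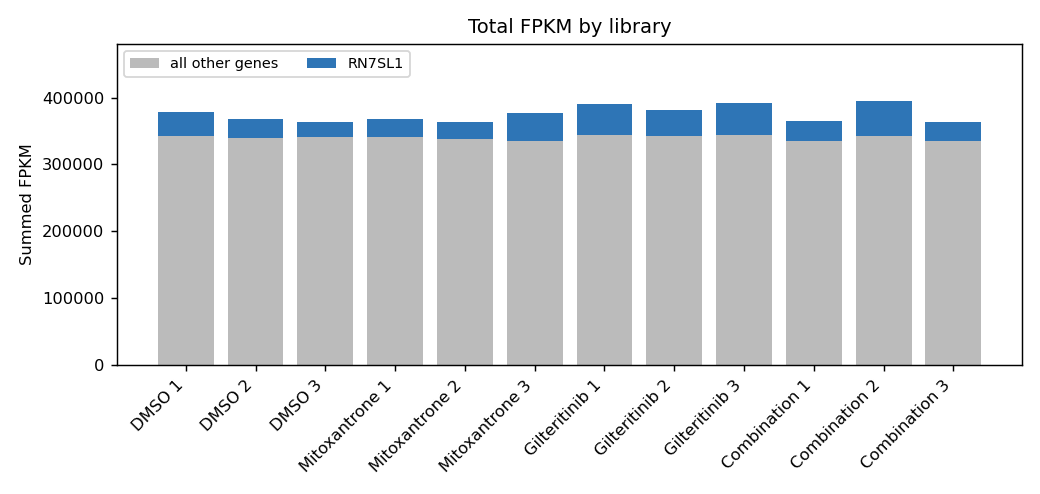
Summed FPKM of each library, stacked as RN7SL1 (blue) on all other genes (grey). The grey part stays between 335333 and 343762 FPKM, while the blue part ranges from 21722 to 52761 FPKM.

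On the log2(FPKM + 1) scale RN7SL1 differed from DMSO by 0.67 in Gilteritinib, 0.33 in the Combination and 0.12 in Mitoxantrone (SE 0.41 each). Tests used limma over all genes with Benjamini-Hochberg adjustment, and the adjusted p-values were 0.9999, 1 and 0.978. Unadjusted, the p-value for Gilteritinib was 0.130 by limma. None of the 3 tested members passed an adjusted p of 0.05 in the 6 comparisons between conditions nor an unadjusted one, and none did with a replicate block. RN7SL1 had an unadjusted p of 0.0427 in Gilteritinib against DMSO when genes were limited to a mean of at least 5 FPKM and of 0.0318 with no mean-variance trend (limma), with an adjusted p of 0.9999 in both. The background was as low: 0.00538% of 18574 genes passed in Combination against DMSO (1 gene, MIR4316, named after its value was seen) and 0% in each of the other 5 comparisons and in the test of any difference among the 4 conditions. At an unadjusted p under 0.05 the genes passing were 7.9% in Mitoxantrone against DMSO, 1.86% in Gilteritinib against DMSO, 1.67% in Combination against DMSO, 1.63% in Combination against Gilteritinib, 5.53% in Combination against Mitoxantrone and 9.52% in Gilteritinib against Mitoxantrone. With the replicate number as a block, these rose from 1467, 346, 310, 303, 1027 and 1768 genes to 2954, 921, 808, 815, 2261 and 3338. The comparisons with DMSO share its 3 libraries.

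Copies of the signal recognition particle RNA were present at far lower levels. The rows named RN7SL3, RN7SL with a number and P, or Metazoa_SRP numbered 526, of which 174 passed the filter, and summed to 0.296% to 0.548% of total FPKM. RN7SL3 had 354 ± 103 FPKM (SD, n = 12), from 249 in Mitoxantrone replicate 1 to 544 in Combination replicate 2. RN7SL4P, on chromosome 3, had 291 ± 179 FPKM and RN7SL5P, on chromosome 9, had 175 ± 44.8. The FPKM of RN7SL3 was 0.741% to 1.26% of that of RN7SL1 over the 12 libraries. The ratio of RN7SL1 to RN7SL3, which does not depend on how a library was scaled, ran from 79.6 in DMSO replicate 2 to 135 in Gilteritinib replicate 2. By condition the ratio was 79.6 to 90.4 in DMSO and 87.3 to 106 in Mitoxantrone. It was 90.6 to 135 in Gilteritinib and 96.9 to 115 in the Combination. Differences in this ratio were not tested. RN7SL3 stood 0.25 above DMSO in Gilteritinib on the log2 scale (SE 0.32, limma adjusted p = 0.9999). In the Combination RN7SL3 stood 0.00029 above DMSO (SE 0.32), where RN7SL1 stood 0.33 above it (SE 0.41). Shared fragments could move both genes at once, and their part was not tested.

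**Figure D3:**
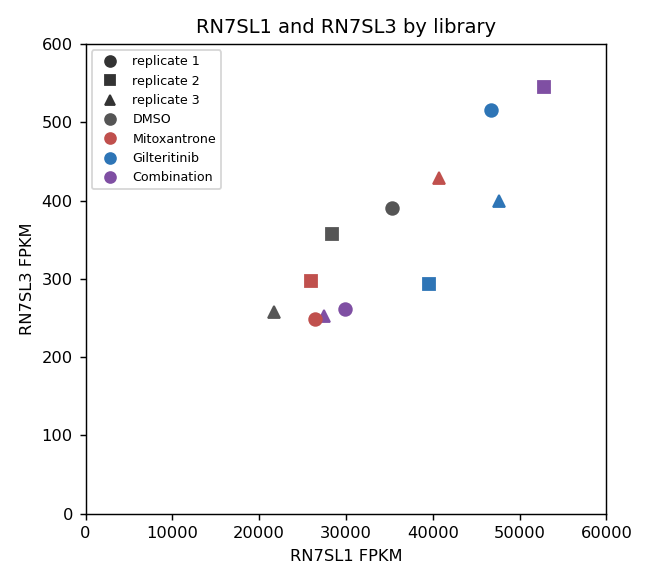
FPKM of RN7SL3 against that of RN7SL1 in 12 libraries; colour gives the condition and shape the replicate number. RN7SL3 ranges from 249 to 544 FPKM and RN7SL1 from 21722 to 52761 FPKM, and Combination replicate 2 is highest in both. The order of the libraries differs between the genes. Gilteritinib replicate 2 has 39603 FPKM of RN7SL1 and 293 of RN7SL3, and DMSO replicate 1 has 35334 and 391.

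The 5 genes whose log2 pattern over the 12 libraries was most like that of RN7SL1 were RPL31, H4C12, SNRPG, H4C16 and RPS27A. Among 9244 genes with a mean of at least 5 FPKM, copies left out, their Pearson correlations were 0.899, 0.862, 0.815, 0.811 and 0.797, against a median of -0.08. Over replicates 2 and 3 alone they were 0.895, 0.954, 0.960, 0.795 and 0.858. RPL31 and RPS27A encode ribosomal proteins, H4C12 and H4C16 histone H4, and SNRPG a core protein of spliceosomal particles. RPL31 moved over a narrow range, from 134 to 168 FPKM, and H4C12 from 37.1 to 87.7 FPKM. These points share libraries and depth, and the genes were picked for this likeness.

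RN7SK, the RNA that restrains P-TEFb, and RPPH1, the RNase P RNA, have no level here, but rows at or like their loci do. The 127 rows named as 7SK copies, 43 of them past the filter, summed to 0.0678% to 0.0952% of total FPKM. The highest were RN7SKP203 on chromosome 2 (72.8 ± 14.7 FPKM), RN7SKP80 on chromosome 22 (59.1 ± 8.14) and RN7SKP206 on chromosome 8 (21.4 ± 3.95; SD, n = 12 each). RPPH1 lies within AL355075.4, a row with at most 0.13 FPKM. RN7SL2 lies within AL627171.2, whose mean was 0.269 FPKM. These values do not stand for RN7SK, RPPH1 or RN7SL2.

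RMRP (chr9:35657751-35658018, minus strand), the RNA of RNase MRP, was matched through 1 of its 2 overlapping GENCODE records. It was at 0 in 11 libraries, with a floor of 3 fragments at 0.271 to 0.353 FPKM a library, and at 0.113 FPKM in DMSO replicate 3, which is 1 fragment. TERC (chr3:169764520-169765060, minus strand), the telomerase template, had 1 to 9 fragments a library. Its FPKM were 0.205, 0.153 and 0.336 in DMSO and 0.275, 0.350 and 0.0462 in Mitoxantrone. In Gilteritinib TERC had 0.403, 0.101 and 0.391 FPKM, and in the Combination 0.210, 0.217 and 0.480. A GENCODE record on the same strand, RF00024, overlaps TERC and has no row, as with the other RMRP record. What such records take from the levels of TERC and RMRP was not tested. The 4 conditions overlapped, and no difference in TERC was detectable at these fragment counts.

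RNY1, a Y RNA, followed the replicate number. In DMSO it had 12.8, 1.96 and 3.22 FPKM in replicates 1, 2 and 3, and in Mitoxantrone 5.27, 3.35 and 3.32. In Gilteritinib RNY1 had 8.56, 3.13 and 3.74 FPKM and in the Combination 3.77, 2.85 and 2.30. Replicate 1 was the highest library of every condition, at 3.77 to 12.8 FPKM, and the others had 1.96 to 3.74 FPKM. The replicate 1 libraries were thus all above the others, as for 13.2% of all genes tested. The lowest of the former, Combination replicate 1 (15 fragments, counting error 0.974 FPKM), and the highest of the latter, Gilteritinib replicate 3 (16 fragments, 0.935 FPKM), did not differ beyond counting error. As fragments, RNY1 had 131 in the 4 libraries of replicate 1, 44 in replicate 2 and 52 in replicate 3. RNY3, the neighbouring Y RNA, had 17, 1 and 1 fragments in the same order, 10 of them in Gilteritinib replicate 1, and was at 0 in 6 libraries, with a floor of 3 fragments at 0.712 to 0.927 FPKM.

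VTRNA1-1, the vault RNA, went the other way. It had 2.52, 3.91 and 4.60 FPKM in DMSO and 1.002, 5.73 and 5.05 in Mitoxantrone. In Gilteritinib VTRNA1-1 had 4.15, 3.57 and 5.07 FPKM and in the Combination 1.15, 5.63 and 4.66. Replicate 1 was the lowest library in DMSO, Mitoxantrone and the Combination but not in Gilteritinib, where replicate 2 was lowest. The fragments were 34, 64 and 70 over the replicates numbered 1, 2 and 3.

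**Figure D4:**
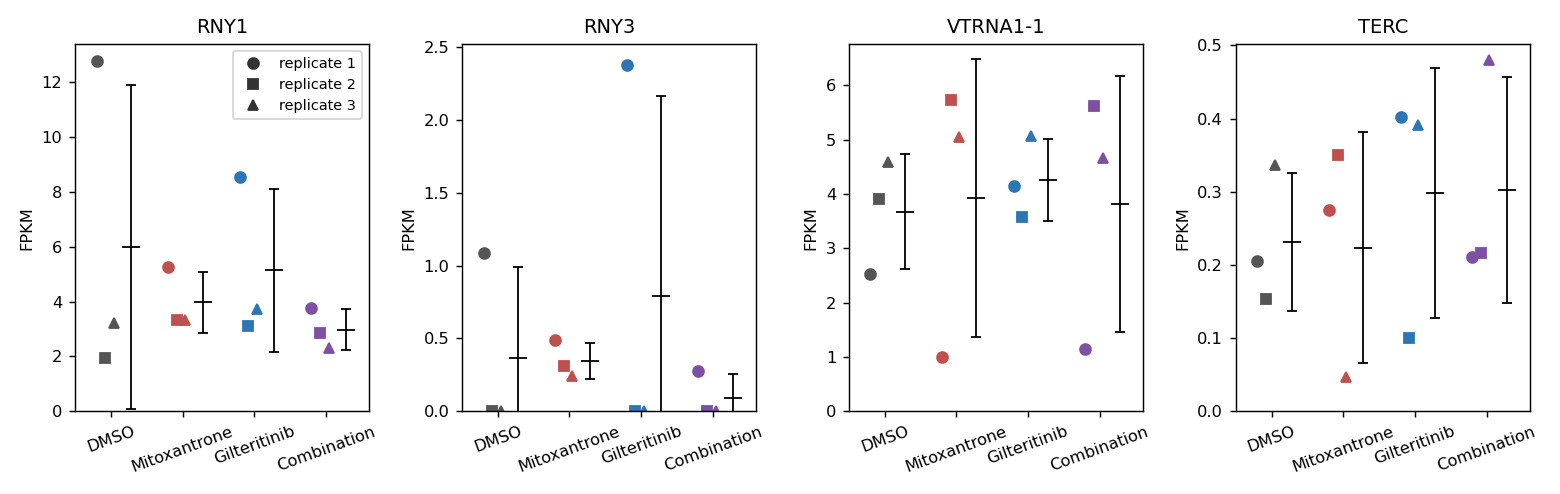
FPKM of RNY1, RNY3, VTRNA1-1 and TERC in each library by condition, each panel on its own scale from 0; the marker shape gives the replicate number and the bar is the mean ± SD of 3 libraries. For RNY1 the replicate 1 libraries (circles) lie from 3.77 to 12.8 FPKM, the lowest of them within counting error of the highest other library, and for VTRNA1-1 they lie from 1.002 to 4.15 FPKM.

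A difference among the 3 replicate numbers was tested with limma with condition in the fit. RNY1 (adjusted p = 0.0261) and VTRNA1-1 (adjusted p = 0.0454) passed, and RN7SL1 (adjusted p = 0.972) did not. The background was high, since 27.9% of the 18574 genes passed, so 2 of 3 members is not a result about them. That replicate 1 stands apart was known beforehand from these data, and the contrast of replicate 1 against the mean of replicates 2 and 3 is given as a description. In it RNY1 was 1.01 higher in replicate 1 (log2, SE 0.22, limma adjusted p = 0.00873) and VTRNA1-1 fell by 0.95 (SE 0.24, limma adjusted p = 0.0155), whereas RN7SL1 stood at -0.01 (SE 0.31, limma adjusted p = 0.986). In all, 38.3% of genes passed this contrast, 26.3% higher and 12.1% lower in replicate 1. Under median-ratio scaling 2830 genes were higher and 3875 lower, in place of 4883 and 2240, while RNY1 stayed at 0.90 and VTRNA1-1 at -1.02. The VTRNA1-1 call was lost without Mitoxantrone replicate 1 (adjusted p = 0.0586, limma) or Combination replicate 1 (adjusted p = 0.0702, limma). With each library left out in turn, the limma adjusted p over the 3 replicate numbers ran from 0.0246 to 0.0869 for RNY1, passing in 9 of 12 fits, and from 0.0179 to 0.168 for VTRNA1-1, passing in 2. The mitochondrial share was 1.64% to 3.32% in the 4 replicate 1 libraries and 3.48% to 4.401% in the others. Its part in these differences was not tested.

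**Figure D5:**
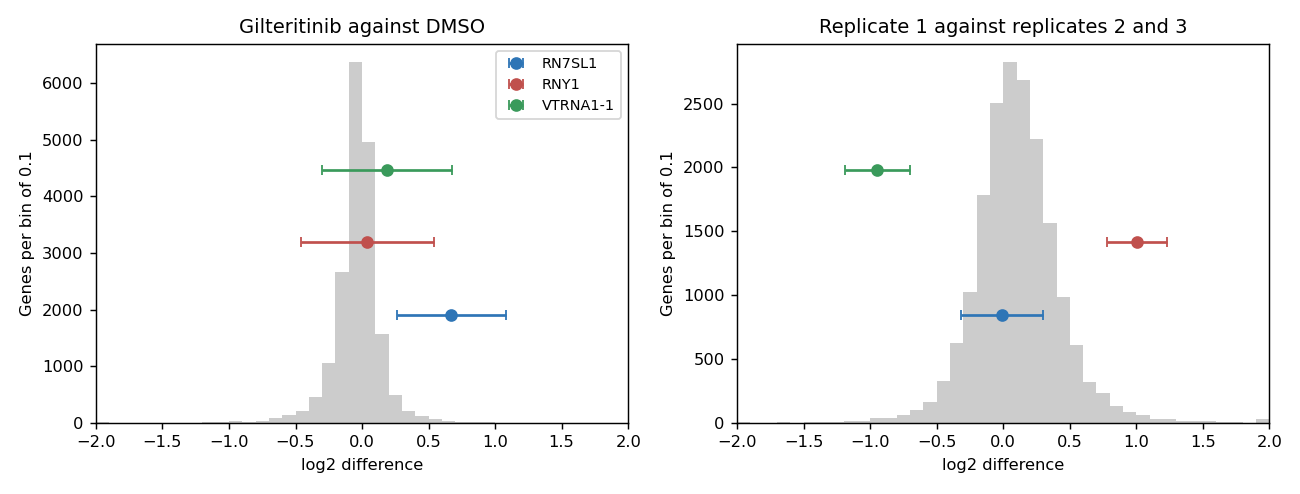
Distribution of log2(FPKM + 1) differences over 18574 genes (grey, genes per bin of 0.1; values beyond the axis are in the end bins) for Gilteritinib against DMSO (left) and replicate 1 against the mean of replicates 2 and 3 (right), with the 3 tested members as points ± SE at arbitrary heights. RN7SL1 lies at 0.67 on the left and -0.01 on the right, where RNY1 lies at 1.01 and VTRNA1-1 at -0.95.

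Against conditions, RNY1 and VTRNA1-1 gave small differences with wide errors. RNY1 differed from DMSO by -0.18 in Mitoxantrone, 0.04 in Gilteritinib and -0.50 in the Combination (log2, SE 0.50 each). Without DMSO replicate 1, its highest library, these became 0.47, 0.69 and 0.15. VTRNA1-1 differed from DMSO by -0.08, 0.19 and -0.09 in the same order (log2, SE 0.49 each).

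The Y RNAs too have many copies, and the copies together held more FPKM than RNY1 and RNY3. The 478 rows named Y_RNA, or RNY1 or RNY3 with P and a number, summed to a mean of 1699 FPKM. Of these rows 289 were past the filter. RNY1 and RNY3, each a single row, had means of 4.52 and 0.398 FPKM. The name Y_RNA does not say which Y RNA a row resembles, and overlap of these rows with other genes was not tested. The highest were rows named Y_RNA on chromosome 3 (174 ± 33.5 FPKM), chromosome 2 (64.2 ± 18.4) and chromosome 1 (57.1 ± 14.0; SD, n = 12 each). No copy was counted as RNY1 or RNY3.

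The protein partners of these RNAs, and other RNAs of the same kind, were read from 9 lists. Of their 110 genes, 102 had a row and 94 were tested. None passed in any of the 6 comparisons between conditions, with a smallest limma adjusted p of 0.331, and none passed with the replicate number as a block. In replicate 1 against the mean of replicates 2 and 3, 18 were higher and 20 lower, 40.4% in all, near the 38.3% of all genes. With median-ratio scaling 10 were higher and 35 lower, beside 15.2% and 20.9% of all genes.

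Of 29 other small ribonucleoprotein RNAs, such as the spliceosomal U RNAs, 22 had a row and 17 were tested. Against replicates 2 and 3, 7 were higher and 2 lower in replicate 1, where 26.3% and 12.1% of all genes were, with a median log2 difference of 0.78 beside 0.09 for all genes. RNU4-1 and RNU4-2 encode U4 RNA of the spliceosome and are near copies that can share fragments. RNU4-1 had 214 FPKM in DMSO replicate 1, 100.4 in Mitoxantrone replicate 1, 198 in Gilteritinib replicate 1 and 115 in Combination replicate 1, and 34.7 to 58.2 in the other 8 libraries. RNU4-2 had 102 to 176 FPKM in replicate 1 and 36.0 to 80.2 in the other 8 libraries. The replicate 1 libraries were all above the others for either gene, as for 13.2% of all genes tested. RNU2-1, the U2 RNA of the spliceosome, ran from 0 FPKM in Combination replicate 3 to 17.2 in Gilteritinib replicate 2, and RNU5B-1, a U5 RNA, from 9.78 to 22.9.

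None of the proteins that work with RN7SL1 passed a test between conditions. All 8 signal recognition particle proteins and receptor subunits were tested, and their median log2 difference from DMSO was 0.04 in Gilteritinib, beside -0.03 for all genes. SRP9 had 169 ± 23.9 FPKM, SRP72 had 68.9 ± 2.65 and SRP14 had 62.3 ± 6.42 (SD, n = 12 each). In Gilteritinib SRP14, which with SRP9 binds the Alu end of the RNA, differed from DMSO by 0.04 (log2, SE 0.11, limma adjusted p = 0.9999).

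Of the 11 genes of the 7SK particle and P-TEFb, all 11 were tested and 4 had an unadjusted p under 0.05 in Mitoxantrone against DMSO, where 7.9% of all genes did. These 4 were higher, but with median-ratio scaling 2 were higher and 1 lower, and with a replicate block 4 were higher and 1 lower. HEXIM1, the protein with which 7SK holds P-TEFb inactive, had 15.4, 14.2 and 14.6 FPKM in DMSO and 19.4, 17.3 and 16.5 in Mitoxantrone. It had 16.1, 17.2 and 16.7 FPKM in Gilteritinib and 17.5, 17.6 and 17.5 in the Combination. The Mitoxantrone libraries were all above the DMSO libraries, as for 7.68% of all genes. So were the Gilteritinib libraries, as for 2.18%, and the Combination libraries, as for 2.57%. These comparisons share the 3 DMSO libraries, and the share of genes above DMSO in all 3 drug conditions was not computed. The log2 differences of HEXIM1 were 0.25, 0.16 and 0.23 (SE 0.07 each), with limma adjusted p-values of 0.492, 0.9999 and 1. HEXIM1 was named for its small p in the test over the 4 conditions. ELL2, an elongation factor, was named for the same reason. ELL2 differed from DMSO by 0.30 in Mitoxantrone (log2, SE 0.09, limma adjusted p = 0.494), 0.10 in Gilteritinib and 0.29 in the Combination. AFF1, a scaffold of the elongation complex, had the highest level of the list, 35.4 FPKM.

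Among 10 tested RNase P and RNase MRP proteins, 2 had an unadjusted p under 0.05 in Mitoxantrone against DMSO, where 7.9% of all genes did, and both were lower. RPP25, a protein subunit, had 15.9, 18.0 and 18.5 FPKM in DMSO and 13.9, 11.7 and 13.1 in Mitoxantrone. In Gilteritinib RPP25 had 15.4, 13.9 and 14.9 FPKM and in the Combination 12.03, 15.5 and 15.9. The Mitoxantrone and Gilteritinib libraries were all below DMSO, as for 5.9% and 4.4% of all genes, and the Combination overlapped it. The log2 differences of RPP25, also named for its small p over the 4 conditions, were -0.41, -0.23 and -0.26 (SE 0.11 each), with limma adjusted p-values of 0.474, 0.9999 and 1. That of RPP40, another subunit, was in Mitoxantrone -0.25 (SE 0.09, limma adjusted p = 0.526). The subunits with the highest levels, POP5 and POP7, had 30.3 and 28.4 FPKM.

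The other lists gave no call between conditions either. Of 7 tested proteins that bind Y RNAs or the ends of RNA polymerase III transcripts, HNRNPK (305 FPKM) and NCL (207 FPKM) were highest, and SSB, the La protein that binds their terminal U run, had 35.5 FPKM. YBX1, a Y RNA binding protein, differed from DMSO by -0.35 in Mitoxantrone (log2, SE 0.15), with a limma adjusted p of 0.618. In Gilteritinib YBX1 differed by -0.18 and in the Combination by -0.26. Of 9 tested telomerase proteins, NHP2 (63.2 FPKM) and NOP10 (60.2 FPKM), which bind the H/ACA part of TERC, were highest. NAF1, an assembly factor of such particles, differed from DMSO by -0.21 in Gilteritinib (log2, SE 0.06, limma adjusted p = 0.9999). In Mitoxantrone NAF1 differed by -0.16 and in the Combination by -0.11. WRAP53, which brings telomerase to Cajal bodies, had 5.09 FPKM. The 3 vault proteins MVP, PARP4 and TEP1 had 9.97, 51.3 and 9.65 FPKM.

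RNA polymerase III itself was measured by 12 tested subunits. Against replicates 2 and 3, 0 of them were higher and 5 lower in replicate 1, where 26.3% and 12.1% of all genes were, with a median log2 difference of -0.15 beside 0.09 for all genes. With median-ratio scaling 10 were lower and 0 higher, beside 20.9% and 15.2% of all genes. POLR1D, a subunit shared with RNA polymerase I, had 19.5 to 22.2 FPKM in replicate 1 and 21.8 to 24.0 in the others, and POLR3K, a small subunit of the enzyme, 17.0 to 19.5 and 17.8 to 23.4. POLR3GL, an alternative subunit, had 2.50 FPKM. The median log2 difference of the 12 from DMSO was -0.0018 in Mitoxantrone, -0.00019 in Gilteritinib and -0.026 in the Combination.

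Of 18 tested initiation and control factors, GTF3C6 (55.0 FPKM), a subunit of TFIIIC, and MAF1 (53.2 FPKM), the repressor of RNA polymerase III, were highest. MAF1 differed from DMSO by -0.33 in Mitoxantrone (log2, SE 0.11, limma adjusted p = 0.507), -0.18 in Gilteritinib and -0.26 in the Combination. SNAPC2, a subunit of the factor for upstream promoters, differed by 0.17, -0.15 and -0.14 in the same order (SE 0.18 each).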

How the data were processed

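The deposited table holds FPKM (fragments scaled by the authors to gene length and to mapped fragments) of 12 libraries, written to 4 decimals. The submitters' processing notes name Bowtie 0.12.9, Cufflinks 2.1.1, HTSeq and DESeq2 and a mouse build, with no role, while the identifiers are human; the aligner settings and the treatment of multiply mapped fragments are not given in the sources used here. The labels name an miRNeasy kit, and the paper TRIzol, for RNA isolation.

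Symbols came from a name table (41461 of 43876 rows) and GENCODE release 29 (GRCh38), which also gave positions, lengths and sequences. No column was left out. Genes with at least 1 FPKM in at least 3 libraries (18574) were tested as log2(FPKM + 1) with limma 3.58.1 in R 4.3.3, 1 mean per condition over all 12 libraries, mean-variance trend, and Benjamini-Hochberg adjustment at 0.05. Shares were tested by exact permutation. Alternatives were a pseudocount of 0.1, no filter, a mean of at least 5 FPKM, median-ratio scaling, totals without RN7SL genes, no trend, a replicate block, only the 6 libraries compared and each library left out. Fold changes on this scale understate those of low genes.

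Depth was recovered as the number of fragments at which FPKM of 1-exon genes become whole; 98.5% to 98.6% of values under 100 fragments were whole within 0.05. Counting errors and floors (3 fragments) cover counting error only. Both steps were tested on simulated data.

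Named genes were the members, the 3 highest copies per family and, of each list, the 2 highest by mean, the 2 with the smallest F test p and any called. The members, lists and tests were chosen with earlier results of these data known. The planned ratios with RN7SL2 and RPPH1 could not be made, and RN7SL3 was used in place of RN7SL2, a choice made after seeing the data. Same-numbered libraries deviated together (18 of 18 pairs, correlation 0.165 to 0.657). Of 36 pairs with other numbers, 12 also had a correlation over 0.1, and the range was -0.562 to 0.434. DMSO replicate 2 went more with Gilteritinib replicate 3 (0.434) than with Gilteritinib replicate 2 (0.222). The check therefore does not by itself show that libraries were paired by number, and the labels do not say what a number stands for. A gene that this rule names, and some sequences, are not reported here.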

Additional observations from a re-analysis of the deposited data

How the results depend on the processing

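In the fit with a replicate block, for libraries paired by number, 0 genes passed in Combination against DMSO, 2 in Combination against Mitoxantrone and 5 in Gilteritinib against Mitoxantrone, and no call of a member changed. With no filter on low values 3 genes passed in Mitoxantrone against DMSO, 2 in Gilteritinib against DMSO, 1 in Combination against Gilteritinib, 3 in Combination against Mitoxantrone, 3 in Gilteritinib against Mitoxantrone and 4 among the 4 conditions. The 1 gene of Combination against DMSO was 0 with a mean FPKM of at least 5, a pseudocount of 0.1 or only the 6 libraries. At an unadjusted p under 0.05, added after seeing the data, 1467, 346, 310, 303, 1027 and 1768 genes passed in Mitoxantrone, Gilteritinib and Combination against DMSO, Combination against Gilteritinib and Mitoxantrone, and Gilteritinib against Mitoxantrone.

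Among the 3 replicate numbers 3333 genes passed with a mean of at least 5 FPKM, and 4347 in replicate 1 against the others; 0 members passed either test there, since that filter leaves RN7SL1 as the only member tested. With no filter 0 members passed the test among the replicate numbers (RNY1 adjusted p = 0.0745, VTRNA1-1 0.118, limma), and with no mean-variance trend 1 did; the cause was not tested. The share of the members was 12.2% when divided by protein-coding FPKM, a smaller sum.

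Leaving out 1 library at a time gave 0 to 36 genes in Mitoxantrone against DMSO, 0 to 1 in Gilteritinib against DMSO, 0 to 1 in Combination against DMSO, 0 to 20 in Combination against Mitoxantrone, 0 to 41 in Gilteritinib against Mitoxantrone and 0 to 22 among the 4 conditions; the highest counts over 1 came without Mitoxantrone replicate 1. Among the replicate numbers it gave 3005 to 4854 genes, lowest without Combination replicate 1 (3419 without Gilteritinib replicate 1), and 0 to 1 members, and in replicate 1 against the others 1 to 2 members. The log2 difference of RN7SL1 ran from -0.092 to 0.29 in Mitoxantrone against DMSO and from -0.18 to 0.12 in replicate 1 against the others. That of RNY1 ran from -0.64 to 0.47, -0.41 to 0.69 and -0.96 to 0.15 in Mitoxantrone, Gilteritinib and Combination against DMSO, and that of VTRNA1-1 from -0.40 to 0.48, -0.0037 to 0.33 and -0.40 to 0.42. The RN7SL1 share in Mitoxantrone less DMSO ran from -0.514 to 1.53 points. The 82 other alternatives for log2 differences of members, and 10 of the RN7SL1 share, kept direction and side of the threshold. RMRP, RNY3 and TERC had at most 10 fragments a library.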
